A study of Mus musculus with 6 samples.

Results

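The genes described here were 47 genes of the cell cycle and DNA replication, measured by RNA-seq in 6 mouse libraries. The libraries are labelled as liver sinusoidal endothelial cells (LSECs) and came from livers bearing HCT116 colorectal cancer liver metastases. The 47 genes were found by their symbol in the deposited table of 60832 genes, and all 47 were present there. By role they comprised 14 S-phase genes, 25 mitotic genes, 4 genes of the G1/S transition (the cyclins Ccnd1, Ccne1 and Ccne2 and the transcription factor E2f1), the late cell cycle transcription factors Foxm1 and Mybl2, and the inhibitors Cdkn1a and Cdkn2c. HCT116 is a human colorectal cancer cell line, and tumors were raised by injecting it into the mouse liver. In 3 libraries, called sensitive here, the cells came from bevacizumab-sensitive xenografts, and in the other 3, called resistant, from bevacizumab-resistant xenografts. Bevacizumab is an antibody against human VEGF-A. By the study's methods, resistant HCT116 xenografts were raised under prolonged bevacizumab and the vehicle group received IgG, in male BALB/c-Nu mice, which lack T cells. All 6 libraries carry the same culture label, which gives 24 h. The study pulled LSECs from digested metastatic tissue with anti-CD146 beads. In every library, markers of macrophages and Kupffer cells summed higher than those of LSECs, as given below. The labels do not say whether the libraries of a group came from separate mice, so the p-values measure only the spread between these libraries, which may be technical.

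A dividing cell copies its DNA in S phase and separates the copies in mitosis, and the genes for each task are switched on in turn. S-phase genes load and drive the replication machinery (the Mcm helicase subunits, Cdc6, Cdt1, Gins2 and Pcna), supply deoxynucleotides (Rrm1, Rrm2 and Tyms) or copy DNA methylation (Uhrf1), and many are bound by E2F factors. Mitotic genes encode cyclins and kinases, the spindle checkpoint, kinesin motors and chromosome proteins, and many are controlled late in the cycle through a promoter element called CHR (cell cycle genes homology region), often together with CCAAT boxes that bind NF-Y. LSECs and Kupffer cells, the resident macrophages of the liver, are largely quiescent in the adult liver and can divide after injury.

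Promoter sequences are shown because S-phase and mitotic genes are known to be controlled through different elements. A link between these elements and the levels in these libraries was not tested. RefSeq (GRCm38.p6) held promoter windows, from 250 bases before to 50 bases after each start, for 38 of the 47 genes, and no entry was found for Mcm4, Gins2, Ccnd1, Ccne2, Ccna2, Aurkb, Kif20a, Tpx2 and Foxm1. The sequences below are the 200 bases before the start of 4 S-phase and 3 mitotic genes, read 5′ to 3′ on the gene's strand. Capitals mark the CHR letters TTTGAA, the E2F letters TTTGGCGC (or GCGCCAAA, the reverse complement) and the CCAAT box CCAAT (or ATTGG). The 3 S-phase genes with the highest FPKM and a promoter entry were Pcna, Mcm3 and Cdt1, and the 3 such mitotic genes were Cdc20, Ccnb2 and Mki67. Pcna is not printed because 134 of its 200 bases lie in an exon of another transcript, and the 200 bases of Cdt1 held none of these letters. Mcm5 and Mcm6 were not among the genes with the highest level. They were added because they hold E2F letters within the 200 bases, after the motifs had been seen. The printed set thus does not show how common those letters are. Matches past the start are not printed. With the first transcript base as 1, Mcm3 held the E2F letters TTTCCCGC at base 20 and TTTGGCGC at base 39. Cdt1 held TTTGGCGC at base 33, and Ccnb2 held a further TTTGAA at base 5. Positions were chr1:20820313-20820512 on the minus strand for Mcm3, chr8:122567815-122568014 on the plus strand for Cdt1, chr8:75109309-75109508 on the plus strand for Mcm5, chr1:128359706-128359905 on the minus strand for Mcm6, chr4:118437344-118437543 on the minus strand for Cdc20, chr9:70421555-70421754 on the minus strand for Ccnb2 and chr7:135716380-135716579 on the minus strand for Mki67.
Mcm3: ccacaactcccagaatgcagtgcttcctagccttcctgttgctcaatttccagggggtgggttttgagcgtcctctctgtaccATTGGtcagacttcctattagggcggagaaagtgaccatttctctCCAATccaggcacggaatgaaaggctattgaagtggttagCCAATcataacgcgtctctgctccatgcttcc
Cdt1: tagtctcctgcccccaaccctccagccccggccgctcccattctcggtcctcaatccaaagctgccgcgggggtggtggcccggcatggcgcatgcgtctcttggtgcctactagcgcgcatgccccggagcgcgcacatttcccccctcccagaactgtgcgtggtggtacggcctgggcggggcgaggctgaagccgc
Mcm5: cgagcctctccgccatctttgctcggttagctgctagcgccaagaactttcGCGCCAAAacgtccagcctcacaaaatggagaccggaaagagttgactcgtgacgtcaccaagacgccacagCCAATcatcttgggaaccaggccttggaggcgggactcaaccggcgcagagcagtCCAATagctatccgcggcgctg
Mcm6: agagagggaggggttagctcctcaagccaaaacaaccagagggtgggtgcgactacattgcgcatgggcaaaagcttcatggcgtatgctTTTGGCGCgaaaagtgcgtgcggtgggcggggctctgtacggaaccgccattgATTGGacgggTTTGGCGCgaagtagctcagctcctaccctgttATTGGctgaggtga
Cdc20: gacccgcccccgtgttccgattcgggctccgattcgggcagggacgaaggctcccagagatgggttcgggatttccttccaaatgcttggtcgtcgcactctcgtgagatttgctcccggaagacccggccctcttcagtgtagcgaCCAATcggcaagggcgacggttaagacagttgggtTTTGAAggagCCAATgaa
Ccnb2: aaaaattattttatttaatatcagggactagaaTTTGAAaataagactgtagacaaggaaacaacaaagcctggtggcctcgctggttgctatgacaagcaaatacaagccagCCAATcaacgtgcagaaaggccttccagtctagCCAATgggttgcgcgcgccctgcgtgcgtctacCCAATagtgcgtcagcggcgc
Mki67: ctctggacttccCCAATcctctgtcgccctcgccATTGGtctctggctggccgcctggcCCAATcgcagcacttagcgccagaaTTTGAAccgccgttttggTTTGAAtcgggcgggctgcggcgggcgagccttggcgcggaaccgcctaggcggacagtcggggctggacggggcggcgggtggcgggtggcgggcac

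The letters TTTGAA, on either strand, were found in 18 of 23 mitotic windows (78.3%), which belong to 21 genes and overlap where a gene has more than 1 start, in 1 of 14 S-phase windows (7.14%) and in 17.9% of all 32851 promoter windows of that length. With TTCGAA counted as well, 19 of 23 mitotic windows (82.6%) and 2 of 14 S-phase windows (14.3%) held a match, against 19.2% of all windows. The E2F letters TTTCCCGC or TTTGGCGC stood in 6 of 14 S-phase windows (42.9%) and in 0 of 23 mitotic windows, against 1.56% of all windows. CCAAT was frequent in both, in 91.3% of mitotic and 78.6% of S-phase windows against 37.4% of all. These matches describe letters only, and no binding was measured.

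Total counts on genes lay between 17599326 and 20726684 per library, and levels are given as CPM, the count divided by a library's TMM-adjusted total and brought to one scale. A gene with 3 counts stood at 0.136 to 0.195 CPM, depending on the library, which covers counting error only. Replicate 2 of the sensitive group stood apart from the other libraries and was the lowest library for 40.7% and the highest for 33.3% of the 15474 genes tested. Genes listed as LSEC markers were present but did not dominate. The 18 LSEC markers measured summed to between 1701 and 3013 CPM, pan-endothelial markers to between 81.9 and 543 CPM, with the lowest sum in replicate 2 of the resistant group, and 18 macrophage and Kupffer cell markers to between 27717 and 46765 CPM. Of the LSEC list, only Mrc1, Stab1, Maf and Clec1b reached 140 CPM in every library. Clec4g, Gpr182, Wnt2 and Rspo3 stayed at 6.04 CPM or lower in every library. The LSEC sum thus rests largely on few of its genes. Whether LSECs or macrophages carried those genes cannot be told from bulk libraries, so the sum does not measure LSEC RNA. All 18 macrophage markers had over 3 counts in every library. In such bulk libraries fewer dividing cells and less RNA per dividing cell cannot be told apart, and neither can the cell type that carried a cell cycle transcript.

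Between the groups, none of the 47 genes passed the test. edgeR's quasi-likelihood test gave 0 of 47 genes a Benjamini-Hochberg adjusted p-value under 0.05, as for all genes tested (0.0%), and the lowest adjusted p-value among the 47 was 0.940. With unadjusted p-values the count under 0.05 was again 0 of 47, where 3.08% of all genes passed, and DESeq2's Wald test also gave 0 of 47 at either threshold, where 4.74% of all genes passed unadjusted. The smallest unadjusted p-value in edgeR's test was 0.154, for Plk1. In no gene did the 3 resistant libraries all lie above or all below the 3 sensitive libraries, as they did for 9.02% of all genes (4.64% with the resistant libraries higher and 4.38% with them lower). By sign alone, 32 genes had a higher and 15 a lower fitted level in the resistant group. The median log2 fold change, resistant over sensitive, was 0.08 for the S-phase genes and 0.21 for the mitotic genes, beside 0.01 for all genes tested.

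The precision differed between the 2 classes. The standard error of the log2 fold change had a median of 0.30 for the S-phase genes, 0.49 for the mitotic genes and 0.38 for all genes tested. The 95% interval lay within a 2-fold difference in both directions for 11 of 14 S-phase genes and for 1 of 25 mitotic genes. A level 2-fold higher in the resistant group lay outside the interval for 12 S-phase and 2 mitotic genes, and a level 2-fold lower for 13 and 14. For most mitotic genes these libraries could therefore not exclude a level 2-fold higher in the resistant group.

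**Figure D1:**
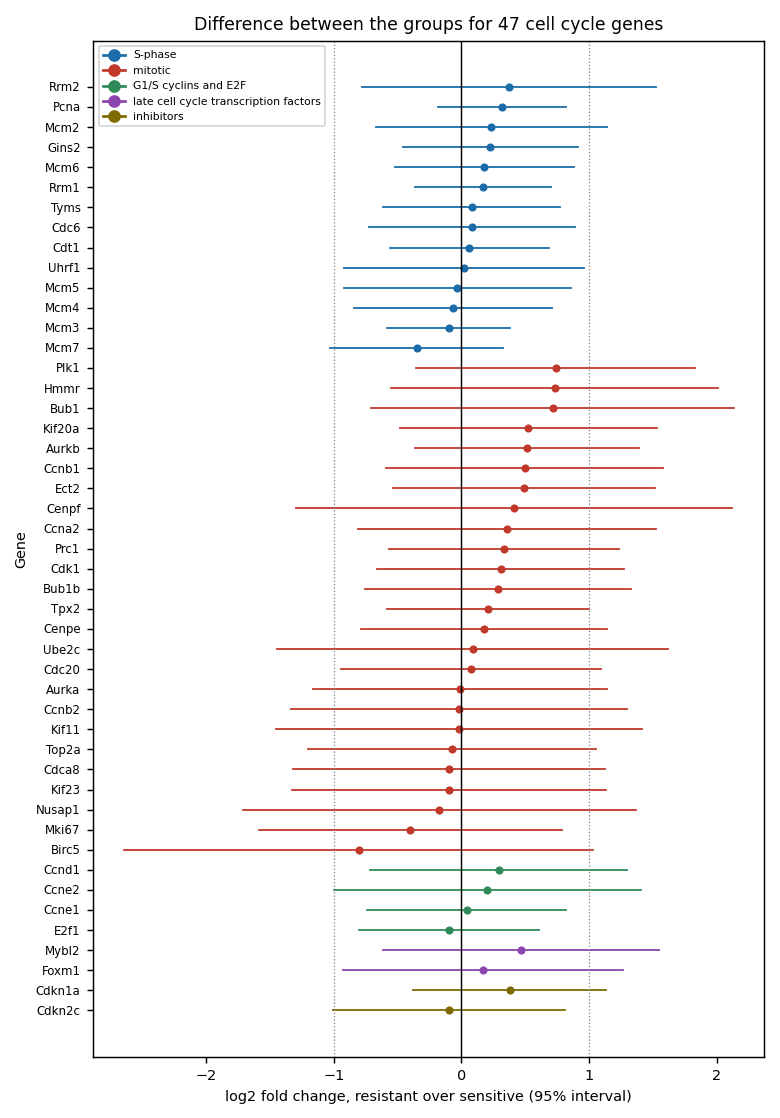
Log2 fold change of each of the 47 genes, resistant over sensitive, from edgeR's quasi-likelihood fit on 3 and 3 libraries, with points for the estimate and lines for the 95% interval, coloured by role and ordered by size within it. The dotted lines mark 2-fold differences. Every interval crosses 0, and those of the mitotic genes, such as Birc5 from -2.65 to 1.03, are mostly wider than those of the S-phase genes.

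Levels were compared between genes as FPKM, which divides by gene length. The inhibitor Cdkn1a (p21) was the highest of the 47, with 62.7 ± 21.1 FPKM (SD, n = 6), and Pcna, the sliding clamp of the replication fork, was next with 53.6 ± 11.7 FPKM (SD, n = 6). Mcm3 (14.6 FPKM), the licensing factor Cdt1 (13.9 FPKM) and Mcm4 (8.86 FPKM) followed among the S-phase genes. The mitotic genes were lower, with medians over genes of 2.05 FPKM against 5.22 FPKM for the S-phase genes and 4.25 FPKM for all genes tested. Their highest were the checkpoint target Cdc20 (4.38 FPKM), the B-type cyclin Ccnb2 (4.22 FPKM) and the proliferation marker Mki67 (3.82 FPKM), which differed by less than the spread over libraries. At the low end stood Cenpf, a kinetochore protein, with a mean of 0.274 FPKM, and it ranged from 0.0504 FPKM in replicate 3 of the sensitive group to 0.472 FPKM in replicate 1 of the resistant group. All 47 genes passed the filter on low counts.

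**Figure D2:**
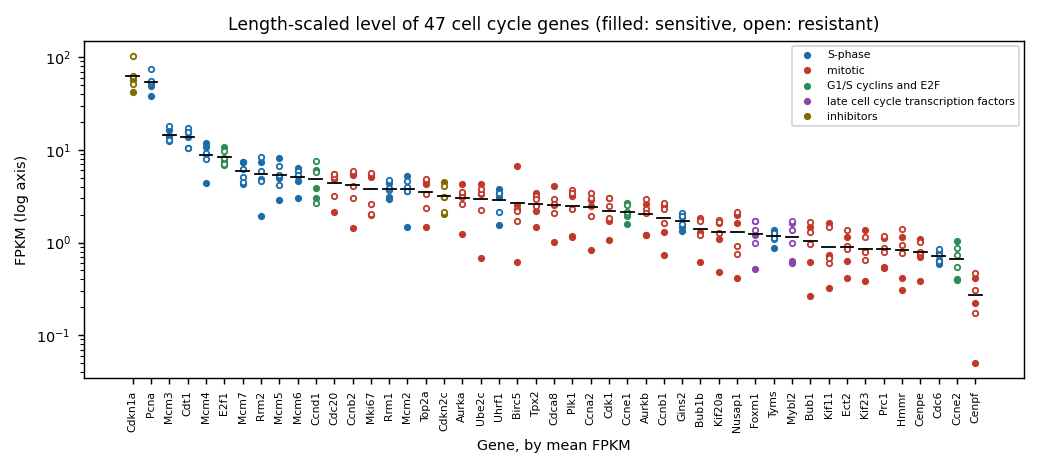
FPKM of each of the 47 genes on a log axis, ordered by mean, with 1 point per library (filled for sensitive, open for resistant) and a bar at the mean of the 6 libraries. Cdkn1a (62.7 FPKM) and Pcna (53.6 FPKM) stand above the rest, and the means of the mitotic genes lie at 4.38 FPKM or lower.

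Among the S-phase genes, Pcna (chr2:132249162-132253314 in GRCm38) had 121, 105 and 117 CPM in sensitive replicates 1, 2 and 3, in that order, and 118, 134 and 175 CPM in the resistant replicates. The groups overlapped through replicate 1 of the resistant group, and the log2 fold change was 0.32 (SE 0.21, unadjusted p = 0.181, adjusted p = 0.940 in edgeR's test). The processed pseudogene Pcna-ps2 took 15.0 to 38.5% of the counts on the pair, so the split between them is uncertain. Summed over both, the CPM was 168, 171 and 153 in the sensitive and 161, 182 and 206 in the resistant libraries, and the groups overlapped again.

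The Mcm genes encode the 6 subunits of the replicative helicase, and they did not vary together. Mcm3 (chr1:20802968-20820312) was steady, with 57.7, 60.3 and 51.6 CPM in the sensitive and 63.6, 47.5 and 47.005 CPM in the resistant libraries (log2 fold change -0.10, SE 0.21). Mcm7 had 31.1, 37.2 and 19.3 CPM in the sensitive and 26.1, 20.3 and 22.2 CPM in the resistant libraries (log2 fold change -0.35, SE 0.29, adjusted p = 0.940). It overlaps Cops6 and Ap4m1 on the opposite strand, and whether the counting used strand is not given in the sources used here. Mcm2 was lowest in replicate 2 of the sensitive group, at 11.6 CPM against 24.8 to 34.2 CPM in the other 5 libraries. Mcm4 was likewise at 17.8 CPM there and at 28.0 to 39.9 CPM elsewhere. The FPKM of Mcm3 was 9.68 times that of Mcm2 in that library and 3.11 to 3.87 times in the others. Mcm5 and Mcm6 had their lowest level in replicate 3 of the sensitive group instead, at 11.6 and 14.0 CPM.

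The spread of Rrm2, the regulated subunit of ribonucleotide reductase, was the widest of the S-phase genes in the sensitive group as the ratio of the highest to the lowest library (3.6001), though not as the SD of CPM, which was larger for Mcm2, Mcm4 and Mcm5 among others. It had 19.4, 15.4 and 5.38 CPM in the sensitive and 15.6, 23.6 and 12.7 CPM in the resistant libraries (log2 fold change 0.37, SE 0.49, adjusted p = 0.940). Replicate 3 of the sensitive group lay below all other libraries, and without it the log2 fold change was 0.00, in a range of 0.00 to 0.75 over the fits that left out 1 library. Rrm1, the larger subunit, ranged only from 33.1 to 52.9 CPM. Cdt1 had 45.7, 49.97 and 33.0 CPM in the sensitive and 51.4, 50.2 and 32.7 CPM in the resistant libraries, with replicate 3 of each group lowest (log2 fold change 0.06, SE 0.27). The remaining Uhrf1, Tyms, Gins2 and Cdc6 had log2 fold changes between 0.02 and 0.23, with Uhrf1 at 6.56 to 15.2 CPM and Cdc6 at 3.28 to 4.57 CPM.

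The mitotic genes varied mainly within the sensitive group. Mki67 (chr7:135689784-135716361), which coats mitotic chromosomes, had 48.8, 63.1 and 20.3 CPM in the sensitive and 53.3, 26.5 and 20.3 CPM in the resistant libraries. Replicate 3 of both groups was at the bottom, and the log2 fold change was -0.40 (SE 0.51, adjusted p = 0.940), with a range of -0.90 to -0.06 when 1 library was left out. Top2a, the topoisomerase that untangles replicated chromosomes, had 36.3, 47.8 and 13.4 CPM in the sensitive and 41.0, 30.6 and 20.8 CPM in the resistant libraries. Its log2 fold change of -0.08 (SE 0.48) took the other sign under several scalings and filters. Cdk1, the mitotic kinase, had 13.9, 9.73 and 5.29 CPM in the sensitive and 11.5, 15.3 and 8.97 CPM in the resistant libraries (log2 fold change 0.31, SE 0.41, range 0.02 to 0.67 when 1 library was left out), and replicate 3 was again lowest in each group.

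Cdc20 and Ccnb2 followed the same order at their lower end. Cdc20 (chr4:118432901-118437352) had 9.57, 10.4 and 4.06 CPM in the sensitive and 8.88, 10.5 and 5.89 CPM in the resistant libraries (log2 fold change 0.07, SE 0.43). Ccnb2 (chr9:70407692-70421547) had 7.80, 9.6045 and 2.20 CPM in the sensitive and 8.43, 6.32 and 4.56 CPM in the resistant libraries (log2 fold change -0.02, SE 0.56). The pseudogene Ccnb2-ps held 9.95 to 28.9% of the counts on that pair, and Ccnb1-ps held up to 27.1% of those on its own pair, in replicate 2 of the sensitive group.

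Birc5, Plk1 and Hmmr had the largest log2 fold changes of the mitotic genes, and replicate 2 of the sensitive group set Birc5 apart from the other two. Birc5 (survivin, a subunit of the chromosomal passenger complex; chr11:117849251-117855743) had 8.14, 26.0 and 2.10 CPM in the sensitive and 7.38, 7.55 and 5.69 CPM in the resistant libraries. That 1 library held the highest Birc5 level, another held the lowest, and the log2 fold change was -0.81 (SE 0.78, adjusted p = 0.940). It was -0.08 with limma-voom and 0.41 without replicate 2 of the sensitive group. Plk1 (a mitotic kinase; chr7:122159439-122169873) had 6.60, 2.92 and 2.54 CPM in the sensitive and 7.57, 7.65 and 4.97 CPM in the resistant libraries. Hmmr (a spindle-associated protein; chr11:40701395-40733422) had 5.79, 2.60 and 1.66 CPM in the sensitive and 4.80, 7.76 and 4.15 CPM in the resistant libraries. In both, replicate 1 of the sensitive group lay among the resistant libraries and the other 2 sensitive libraries lay below them all. The log2 fold change was 0.74 (SE 0.46, 95% interval -0.35 to 1.83) for Plk1 and 0.73 (SE 0.54, 95% interval -0.55 to 2.01) for Hmmr, each with an adjusted p of 0.940. Birc5 CPM was 8.89 times that of Plk1 in replicate 2 of the sensitive group and 0.827 to 1.23 times in the other 5 libraries.

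The other 17 mitotic genes had log2 fold changes between Nusap1 at -0.17 and Bub1 at 0.71, and the libraries of the groups overlapped in each of them. In replicate 2 of the sensitive group, Aurka (12.3 CPM), Kif23 (12.2 CPM), Ube2c (12.8 CPM) and Cdca8 (24.1 CPM) were higher than in any other library, as were Mki67, Top2a, Ccnb2 and Birc5. Kif20a (2.40 CPM) and Ect2 (2.53 CPM) were lower there than in any other library. In all, 8 of 25 mitotic genes (32.0%) were highest and 2 of 25 (8.0%) lowest in that library, beside 33.3% and 40.7% of all genes.

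**Figure D3:**
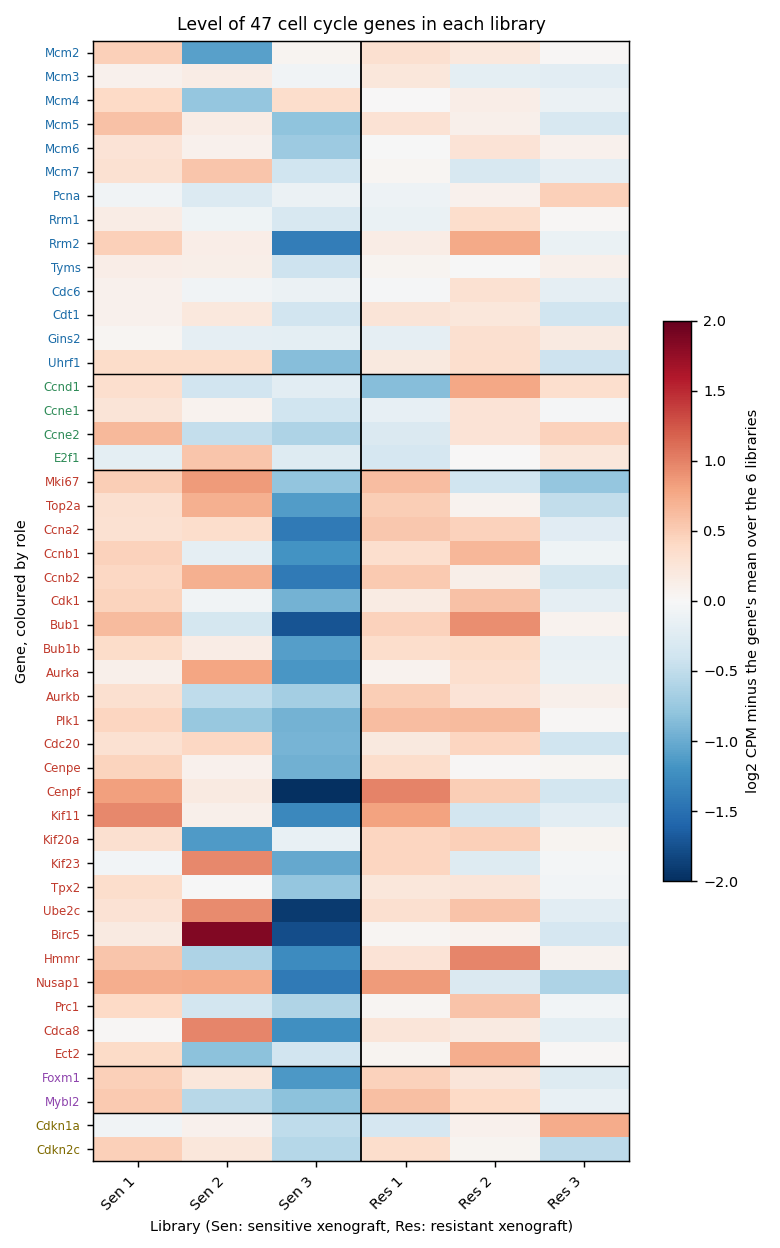
Log2 CPM of each of the 47 genes minus its mean over the 6 libraries, with genes in rows grouped and coloured by role, libraries in columns (Sen for sensitive, Res for resistant) and colour from blue (lower) to red (higher), saturated at 2. Replicate 3 of the sensitive group is the lowest library for 23 of 25 mitotic genes and 8 of 14 S-phase genes, and replicate 2 of that group has mitotic genes of both colours.

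Across the 47 genes, replicate 3 of the sensitive group was the lowest library for 37 (78.7%), where it was lowest for 16.6% of all genes tested. It was lowest for 23 of 25 mitotic genes (92.0%), for 8 of 14 S-phase genes (57.1%), and for Foxm1, Mybl2 and both inhibitors. The median log2 level relative to each gene's mean in that library was -1.12 for the mitotic genes and -0.35 for the S-phase genes, beside 0.03 for all genes. In the other 5 libraries it lay between -0.15 and 0.38 for the mitotic genes and between -0.13 and 0.22 for the S-phase genes. No test was run on these library values, which were looked at after they had been seen.

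Summed over the 25 genes, the mitotic CPM was 283, 311 and 106 in the sensitive and 290.1, 254 and 179 in the resistant libraries. The means were 233 ± 111 and 241 ± 56.6 CPM (SD, n = 3 each), a difference smaller than either SD. Summed over the 14 genes, the S-phase CPM was 487, 416 and 371 in the sensitive and 452, 475 and 453 in the resistant libraries, with means of 424 ± 58.8 and 460.2 ± 13.1 CPM (SD, n = 3 each). The mitotic sum was 0.580, 0.748 and 0.287 of the S-phase sum in the sensitive libraries and 0.642, 0.534 and 0.395 of it in the resistant libraries, so replicate 3 had the lowest ratio in each group.

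**Figure D4:**
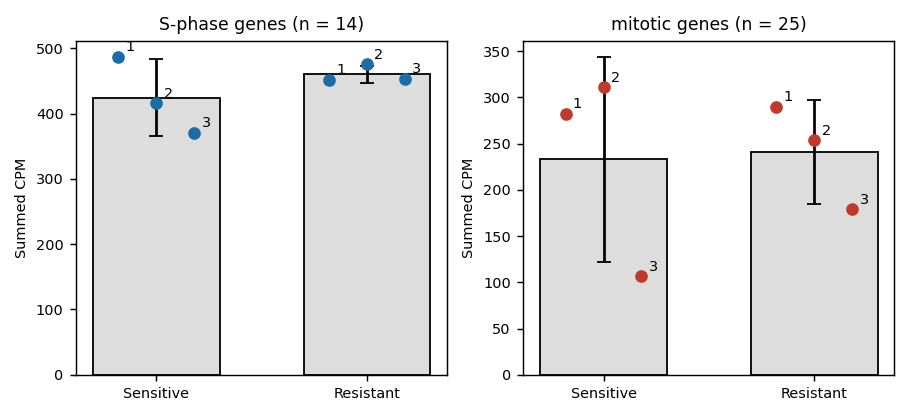
Summed CPM of the 14 S-phase genes (left) and the 25 mitotic genes (right) in each library, with a numbered point per replicate, bars from 0 for the group mean and error bars for the SD (n = 3). The sensitive libraries span 106 to 311 CPM for the mitotic genes, and the resistant libraries lie within that span.

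The ratio of the highest to the lowest library gave the same contrast gene by gene. For the mitotic genes its median was 3.40 among the sensitive and 1.68 among the resistant libraries, and for the S-phase genes 1.72 and 1.40, beside 1.97 and 1.37 for all genes tested. Without replicate 3 of the sensitive group, the ratio over the 2 libraries left was 1.58 for the mitotic genes and 1.157 for the S-phase genes, beside 1.62 for all genes. Leaving out a library cannot raise this ratio, and a ratio over 2 libraries is not comparable with one over 3.

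Markers of other cells also moved between these libraries. The 12 markers of neutrophils and their precursors summed to 3963, 7322 and 296 CPM in the sensitive and 1667, 903 and 213 CPM in the resistant libraries. All 12 had over 3 counts in every library. Replicate 3 was lowest in each group, as for the mitotic sum. S100a8 and S100a9 were high in that sum, at 1277 and 1303 CPM in replicate 1 of the sensitive group. Mpo had 57.2, 82.7 and 3.77 CPM in the sensitive and 45.03, 2.26 and 1.897 CPM in the resistant libraries. Elane had 19.2, 26.2 and 2.69 CPM in the sensitive and 8.74, 1.39 and 0.308 CPM in the resistant libraries. Both were highest in replicates 1 and 2 of the sensitive and replicate 1 of the resistant group, which had the highest mitotic sums. In replicate 2 of the resistant group both were below replicate 3 of the sensitive group, where the mitotic sum was lower. The 10 epithelial markers summed to 154, 314 and 12.4 CPM in the sensitive and 90.3, 110 and 264 CPM in the resistant libraries, with Cdx2 and Krt20 at 0 in at least 1 library. T and NK cell markers summed to 9.94 to 26.1 CPM, with 9 of 10 at 0 in at least 1 library, and B and plasma cell markers to 0.615 to 3.44 CPM, with 6 of 7 at 0 in at least 1. The 9 erythroid markers were the one list whose sums did not overlap between the groups. They summed to 7.51, 17.98 and 13.4 CPM in the sensitive and 4.53, 4.42 and 4.31 CPM in the resistant libraries. Of them, 6 of 9 were at 0 in at least 1 library. Much of the resistant sums was Epor, at 2.81, 3.70 and 3.64 CPM, which overlapped the sensitive 3.06, 4.48 and 8.52 CPM. Hba-a1, Hba-a2 and Hbb-bs did not overlap and had 14 counts or fewer in each resistant library. Hba-a2 had 9 counts or fewer in every library. Of all genes tested, 4.38% lay lower in the resistant group without overlap. Markers of hepatocytes summed to 30.2 to 157 CPM and those of stellate cells and fibroblasts to 87.3 to 369 CPM, both highest in replicate 2 of the resistant group. The part of any of these cells in the mitotic levels was not tested.

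The G1/S genes open the way into S phase. Ccnd1, the D-type cyclin induced by growth signals, had 26.6, 16.2 and 18.2 CPM in the sensitive and 11.7, 36.2 and 26.7 CPM in the resistant libraries. Its extremes were both in the resistant group, and the log2 fold change was 0.29 (SE 0.43, adjusted p = 0.940). E2f1, an activator of S-phase genes, had 22.6, 38.3 and 21.7 CPM in the sensitive and 20.66, 26.1 and 30.4 CPM in the resistant libraries (log2 fold change -0.10, SE 0.30). Of the E-type cyclins, Ccne1 had 6.75, 5.91 and 4.26 CPM in the sensitive and 5.03, 6.83 and 5.54 CPM in the resistant libraries (log2 fold change 0.04, SE 0.33). Ccne2 had 3.40, 1.56 and 1.42 CPM in the sensitive and 1.77, 2.62 and 2.97 CPM in the resistant libraries (log2 fold change 0.20, SE 0.51). The groups overlapped in all 4.

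Foxm1 and Mybl2, the transcription factors that switch on mitotic genes, are themselves made in dividing cells. Foxm1 had 9.33, 7.85 and 3.03 CPM in the sensitive and 9.20, 7.91 and 5.59 CPM in the resistant libraries (log2 fold change 0.17, SE 0.47). Mybl2 had 7.13, 3.37 and 2.79 CPM in the sensitive and 7.47, 6.47 and 4.46 CPM in the resistant libraries (log2 fold change 0.47, SE 0.46, adjusted p = 0.940). Replicate 3 was the lowest of each group for both.

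The inhibitors went different ways by sign. Cdkn1a (chr17:29090976-29100727), a p53 target that blocks cyclin-dependent kinases, had 205, 228 and 150.25 CPM in the sensitive and 171, 227 and 360.15 CPM in the resistant libraries. Replicate 3 of the resistant group was highest, and the log2 fold change was 0.38 (SE 0.32, unadjusted p = 0.279, adjusted p = 0.940). Without that library it was 0.04. Cdkn2c (p18, an inhibitor of the D-cyclin kinases) had 11.3, 9.47 and 5.48 CPM in the sensitive and 10.4, 8.48 and 5.64 CPM in the resistant libraries (log2 fold change -0.10, SE 0.39), lowest in replicate 3 of each group. The FPKM of Cdkn1a was 11.9, 10.2 and 20.998 times that of Mki67 in the sensitive and 9.07, 24.3 and 50.2 times in the resistant libraries, and the groups overlapped.

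Further genes of the same pathways were read from 3 longer lists. Of 46 further S-phase genes, 0 passed at an unadjusted p-value under 0.05, where 3.08% of all genes did, with 26 higher by sign and a median log2 fold change of 0.05. Of 52 further mitotic genes, such as condensins and kinetochore subunits, 0 passed, with 36 higher by sign and a median of 0.17. Of 31 further genes of G1 and cell cycle arrest, 1 passed unadjusted and 0 adjusted, 1 of 31 being close to that share, with 23 higher by sign and a median of 0.25, and Lin54 was not analysed here. The one was Gadd45a (chr6:67035096-67037457), a growth arrest and DNA damage gene, with 56.2, 78.4 and 49.0 CPM in the sensitive and 38.3, 26.0 and 24.4 CPM in the resistant libraries. Every resistant library lay below every sensitive library, with a log2 fold change of -1.05 (SE 0.28, unadjusted p = 0.00680, adjusted p = 0.940 in edgeR's test and 0.249 in DESeq2's). The groups did not overlap in 7 other genes of these lists, all higher in the resistant libraries. They were Slbp and Gmnn of the 46 S-phase genes, Kif18a, Ckap5 and Depdc1a of the 52 mitotic genes, and Cdk4 and E2f3 of the 31 G1 and arrest genes, beside 4.64% of all genes that did so in that direction and 4.38% in that of Gadd45a. Their log2 fold changes lay between 0.18 (Gmnn) and 0.93 (Depdc1a), each with an adjusted p-value of 0.940 in edgeR's test. Low levels in replicate 3 of the sensitive group recurred in the further mitotic genes, where it was the lowest library for 35 of 52 (67.3%). For the further S-phase genes it was lowest for 20 of 46 (43.5%), and for the G1 and arrest genes replicate 2 of that group was lowest for 20 of 31.

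The sign of both class medians rested on 1 library. Without replicate 3 of the sensitive group, the median log2 fold change was -0.06 for the mitotic and -0.03 for the S-phase genes, and 19 of 47 genes were higher by sign. Without replicate 1 of the sensitive group it was 0.57 and 0.25, Plk1 and Hmmr had an unadjusted p-value under 0.05 (2 of 47, against 3.76% of all genes), and 10 of 47 genes did not overlap between the groups, against 19.6% of all genes. Without replicate 2 of that group, Mcm4 passed unadjusted (3.96% of all genes), and without replicate 3, Birc5 did (6.53% of all genes). Without resistant replicates 1, 2 and 3 in turn, 0 of 47 genes passed unadjusted (3.91%, 1.51% and 1.03% of all genes), the mitotic median was 0.07, 0.17 and 0.31, and the S-phase median was 0.11, 0.01 and 0.20. Without sensitive replicates 2 and 3 in turn, the groups did not overlap in 1 and 3 of 47 genes (19.3% and 26.7% of all genes), and without resistant replicates 1, 2 and 3 in 5, 0 and 4 of 47 (23.4%, 15.0% and 12.6% of all genes). No gene of the 47 had an adjusted p-value under 0.05 in any of these 6 fits.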

How the data were processed

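RNA was measured in 6 libraries, 3 per group, grouped and numbered by their titles. The series' design text speaks of lx-2 cells, a human stellate cell line, whereas the sample labels name primary LSECs of the mouse, which were followed. Per the submitters' processing notes, reads were handled with HISAT2 2.0.5, featureCounts 1.5.0-p3, DESeq2 1.16.1 and edgeR, and mm9 is listed as the build. The annotation and the strand setting are not given in the sources used here, and for RNA selection the methods list poly(A) beads as well as ribosomal RNA removal. The authors deposited counts per gene without normalization, and FPKM values (scaled to gene length and library total) beside them. The authors' table of their own comparison was not used.

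The comparison used edgeR 4.0.16 in R 4.3.3. The filter filterByExpr left 15474 of 60832 genes, libraries were normalized by TMM and groups compared by the quasi-likelihood test with robust moderation, two-sided, with Benjamini-Hochberg adjustment over all genes tested and a threshold of 0.05. Standard errors follow from the F statistic. The script was tested on simulated data. Per-library medians used log2(CPM + 0.1). Total counts were 17599326 to 20726684, and reads were counted without molecular identifiers. No pair of libraries within a group agreed within sampling noise (chi-square per gene at least 33.6). Coordinates are from GENCODE M21 (GRCm38), matched by Ensembl identifier for 47 of 47 genes, and are not those of the files.

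The 47 genes, the lists and the tests were chosen with earlier results of these data known. Full values are given for any of the 47 whose unadjusted p-value was under 0.05 or whose groups did not overlap (none), the 3 highest by FPKM and the 3 largest fold changes of the S-phase and mitotic classes, all genes of the small classes, and Mki67, Top2a, Cdk1 and Pcna. Other genes were named after their values were seen. The alternatives tried were DESeq2 1.42.0, limma-voom (limma 3.58.1), the size factors of DESeq2, no factors beyond library totals, other filters, no robust moderation, a replicate block, log2(FPKM + 1) or log2(FPKM + 0.1) with limma, and leaving out each library. Figures were drawn with matplotlib 3.10.9.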

Additional observations from a re-analysis of the deposited data

How the results depend on the processing

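With all 6 libraries kept, 0 of the 47 genes had an adjusted or an unadjusted p-value under 0.05 under each alternative run, and 420 of 470 fold changes kept their direction. With 1 library left out, the adjusted count was 0 in each fit, the unadjusted count ranged from 0 to 2 and the number of genes whose groups did not overlap from 0 to 10, where 12.6% to 26.7% of all genes did not overlap, while 18 of 47 genes kept their direction in all 6 fits. Of 208 values for 13 named genes, 197 kept direction and call and 11 had the other sign. Top2a was at 0.015 with library totals alone, 0.084 with limma-voom, 0.029 with no filter, 0.067 with log2(FPKM + 1) and 0.114 with log2(FPKM + 0.1), and its range with 1 library left out was -0.44 to 0.30. Birc5 ranged from -1.295 to 0.414, the latter without replicate 2 of the sensitive group, and was -0.079 with limma-voom, -0.209 with log2(FPKM + 1) and -0.124 with log2(FPKM + 0.1). Ccnd1 ranged from -0.071 to 0.638, the former without replicate 2 of the resistant group. The cause was not tested. Library totals alone moved the median log2 fold change of all genes to 0.065.

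Deviations from the group means of libraries with the same number correlated at -0.001, 0.034 and 0.194 for replicates 1, 2 and 3. With 3 libraries per group, these values cannot show whether libraries with the same number were prepared together. With the replicate block, 0 of 47 genes passed adjusted or unadjusted, Top2a was at 0.055 and Birc5 at -0.188, and the medians were 0.37 for the mitotic and 0.09 for the S-phase genes. Across all genes the block moved the unadjusted count from 476 to 467, DESeq2 called 24 genes adjusted where edgeR called 0, and with no filter edgeR called 2 adjusted and 2036 unadjusted. With 3 libraries per group, 23 of 25 mitotic intervals include a level 2-fold higher in the resistant group, and the lowest mitotic counts, of Cenpf, were at 16 in 1 library.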
